A study of Mus musculus with 6 samples.

Results

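The genes described here are 41 genes of the skeletal muscle sarcomere and of muscle fibre types, chosen by name. All 41 were among the 35434 gene symbols of the deposited expression table. They comprise 14 isoforms typical of fast fibres, 8 typical of slow fibres, 2 developmental myosins, 14 genes shared by all fibres and 3 myogenic transcription factors. The samples were lesional skin of psoriasis mice given a transfer of regulatory T cells (Tregs), so both groups carried the disease and a transfer. Mice of the Ctrl-Treg group received control Tregs, and mice of the Lenv-Treg group received Tregs treated with lenvatinib, an inhibitor of receptor tyrosine kinases. Each group had 3 RNA-seq libraries. The sources used here do not give strain, age, the way the disease was induced or the time of sampling. Nor do they say that each library came from its own mouse, and p-values therefore measure the spread between libraries, which may be technical.

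The sarcomere is the contractile unit of striated muscle, in which thick filaments of myosin slide along thin filaments of actin that carry troponin and tropomyosin. Many of its proteins exist as fast, slow and developmental isoforms from separate genes, and the mixture of isoforms defines the type of a fibre. Mouse skin lies over a thin sheet of striated muscle, the panniculus carnosus, so a piece of skin can hold fibres as well as epidermis, dermis and fat.

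Promoter sequences were taken from RefSeq on GRCm38.p6, an older build than the GRCm39 of the deposited values, and 32 of the 41 genes had an entry. Actn3, Tnnt3, Tnni2, Neb, Myoz1, Myot, Tcap, Trdn and Myod1 did not. The 6 printed here are the 250 bases before the transcription start of the genes around which the results turn: Myog and Actn2, which were higher in Lenv-Treg, Casq1 and Pvalb, which were lower, and the fast myosin genes Myh1 and Myh4. They are written 5′ to 3′ on the strand of the gene. Capitals mark CANNTG, the general E-box letters, and the MEF2 consensus, the A/T-rich letters recognised by MEF2 factors. Myogenic factors of the MyoD family recognise some forms of CANNTG, and other factors recognise other forms. CANNTG and the MEF2 consensus were searched on both strands.
Myog (chr1:134289754-134290003, plus strand): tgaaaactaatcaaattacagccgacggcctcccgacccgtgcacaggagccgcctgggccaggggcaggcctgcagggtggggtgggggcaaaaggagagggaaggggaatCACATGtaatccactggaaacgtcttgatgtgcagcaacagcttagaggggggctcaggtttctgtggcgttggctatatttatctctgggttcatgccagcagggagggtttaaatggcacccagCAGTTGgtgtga
Actn2 (chr13:12340733-12340982, minus strand): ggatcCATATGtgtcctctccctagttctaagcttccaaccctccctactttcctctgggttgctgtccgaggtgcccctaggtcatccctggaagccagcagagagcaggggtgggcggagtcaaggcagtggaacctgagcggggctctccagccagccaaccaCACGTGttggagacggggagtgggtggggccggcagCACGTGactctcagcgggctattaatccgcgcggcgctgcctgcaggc
Casq1 (chr1:172219896-172220145, minus strand): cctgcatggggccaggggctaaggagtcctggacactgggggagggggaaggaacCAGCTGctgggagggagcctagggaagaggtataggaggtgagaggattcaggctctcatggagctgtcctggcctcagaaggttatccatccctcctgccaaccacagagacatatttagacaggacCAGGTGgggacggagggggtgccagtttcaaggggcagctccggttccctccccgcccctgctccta
Pvalb (chr15:78206401-78206650, minus strand, the first of its 2 listed starts): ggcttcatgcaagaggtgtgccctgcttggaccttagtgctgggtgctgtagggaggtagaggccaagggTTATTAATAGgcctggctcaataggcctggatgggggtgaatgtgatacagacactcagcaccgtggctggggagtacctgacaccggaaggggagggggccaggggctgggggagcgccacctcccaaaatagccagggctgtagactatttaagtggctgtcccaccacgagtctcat
Myh1 (chr11:67199852-67200101, plus strand): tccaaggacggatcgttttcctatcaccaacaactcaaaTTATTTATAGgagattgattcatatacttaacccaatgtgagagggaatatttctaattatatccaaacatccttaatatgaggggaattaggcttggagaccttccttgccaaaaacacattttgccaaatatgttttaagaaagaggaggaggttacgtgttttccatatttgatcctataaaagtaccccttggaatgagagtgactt
Myh4 (chr11:67237562-67237811, plus strand): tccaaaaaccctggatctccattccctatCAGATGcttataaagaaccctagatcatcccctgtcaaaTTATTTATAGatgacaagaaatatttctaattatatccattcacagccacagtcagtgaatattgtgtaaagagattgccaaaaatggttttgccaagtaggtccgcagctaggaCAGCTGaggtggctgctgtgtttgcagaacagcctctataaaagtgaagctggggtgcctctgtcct

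The MEF2 consensus was present in 7 of the 32 promoters (21.9%), those of Myh1, Myh4, Myh8, Ttn, Pvalb, Casq2 and Xirp2, and in 3.01% of all 27025 promoters of the same length. CAGCTG, a form of CANNTG, was present in 11 of the 32 (34.4%) and in 12.8% of all promoters. CANNTG in any form was present in 26 of the 32 (81.25%) and in 66.0% of all promoters. In the sequences above, Myh1 and Pvalb carried the MEF2 consensus and no CANNTG, whereas Myog, Actn2 and Casq1 carried CANNTG and no MEF2 consensus. Myh4 carried both. These matches are descriptions of letters in a window and not binding sites, and a missing match says only that those letters are not there.

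The amount of muscle RNA differed widely between libraries of the same group. The summed level of the 41 genes was 9076, 16297 and 5083 FPKM in Ctrl-Treg replicates 1, 2 and 3, and 6669, 5331 and 4635 FPKM in Lenv-Treg replicates 1, 2 and 3. FPKM is the number of fragments on a gene scaled by gene length and by library depth. Ctrl-Treg replicate 2 therefore stood highest, Ctrl-Treg replicate 3 lay among the Lenv-Treg libraries, and the groups overlapped. The same order recurred gene by gene. Of the 33 genes that passed the filter on low values (at least 0.5 FPKM in at least 3 of 6 libraries), Ctrl-Treg replicate 2 was the highest Ctrl-Treg library for 31 and Ctrl-Treg replicate 3 the lowest for 30. The median ratio of Ctrl-Treg replicate 2 to Ctrl-Treg replicate 3 was 3.32 over the 33 genes and 0.997 over all 13945 genes tested. This ratio keeps its direction, so rises and falls offset each other in its median. Lenv-Treg replicate 1 was the highest of its group for 26 genes. The median gene of the 33 differed 1.49-fold between its highest and its lowest Lenv-Treg library, a measure without direction that cannot be set against the ratio above. The median within-group SD on the log2(FPKM + 1) scale was 0.83 in Ctrl-Treg and 0.27 in Lenv-Treg for these genes, and 0.14 and 0.13 for all genes tested. Fewer fibres in a sample and less RNA per fibre cannot be told apart in bulk tissue. Depth was similar, with 38704536 to 40248462 assigned reads per library as recovered from the FPKM values.

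**Figure D1:**
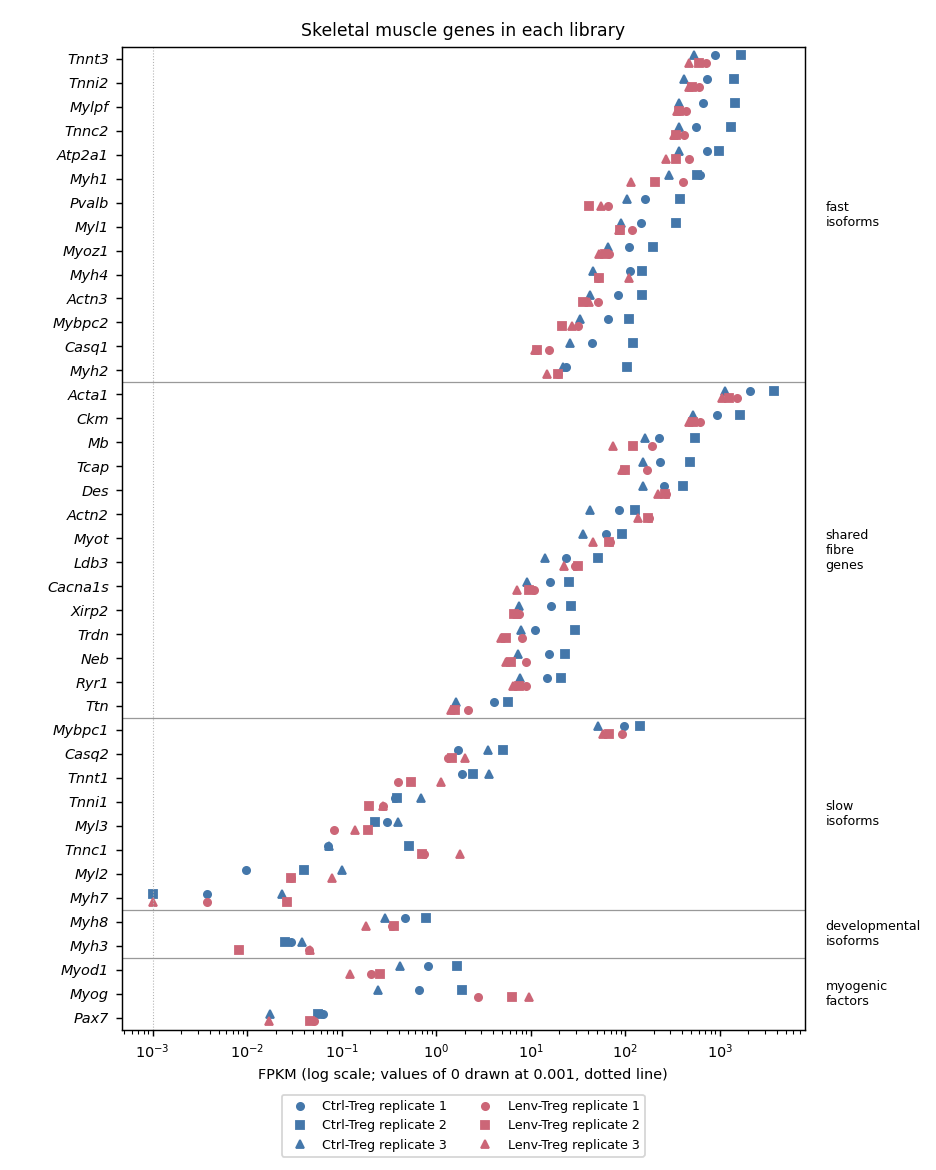
FPKM of each of the 41 genes in each of the 6 libraries on a log axis, grouped by role and ordered by mean level (blue, Ctrl-Treg; red, Lenv-Treg; circle, square and triangle, replicates 1, 2 and 3). For most genes the blue square, Ctrl-Treg replicate 2, lies farthest to the right and the blue triangle, Ctrl-Treg replicate 3, lies among the red symbols, while Myog and Actn2 have all red symbols to the right of the blue ones.

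In the comparison of Lenv-Treg with Ctrl-Treg, most of the muscle genes had a lower mean in Lenv-Treg but did not pass the test. Limma on log2(FPKM + 1), with adjustment over all 13945 genes and a threshold of 0.05, called 3 of the 33 genes higher in Lenv-Treg (9.09% of them, against 11.0% of all genes) and 4 lower (12.1%, against 30.8%). The genes called higher were Myog, Actn2 and Tnnc1, the last of which passed the filter through its Lenv-Treg values, and those called lower were Casq1, Pvalb, Mybpc2 and Tnnt1. Together 7 of the 33 were called, against 41.7% of all genes, and the other 26 were not. The difference was negative for 28 of the 33 genes, and its median was -0.79 on the log2 scale, against -0.17 over all genes tested. That median was -0.39 without Ctrl-Treg replicate 2 and -1.21 without Ctrl-Treg replicate 3. With libraries scaled to equal medians of ratios, so that the median of all genes was 0.00, the median of the muscle genes was -0.58 and the calls were 3 higher and 3 lower (17.3% of all genes in each direction), Mybpc2 being lost. Rescaled to TPM, where the median of all genes was -0.44, it was -1.08, with 2 called higher (6.79% of all genes) and 18 lower (57.2% of all genes). Without Ctrl-Treg replicate 3 the test called 22 muscle genes lower (24.4% of all genes) and 1 higher (9.26% of all genes), and without Lenv-Treg replicate 2 it called 1 lower (19.9% of all genes). Myog and Tnnt1 were called whichever library was left out.

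**Figure D2:**
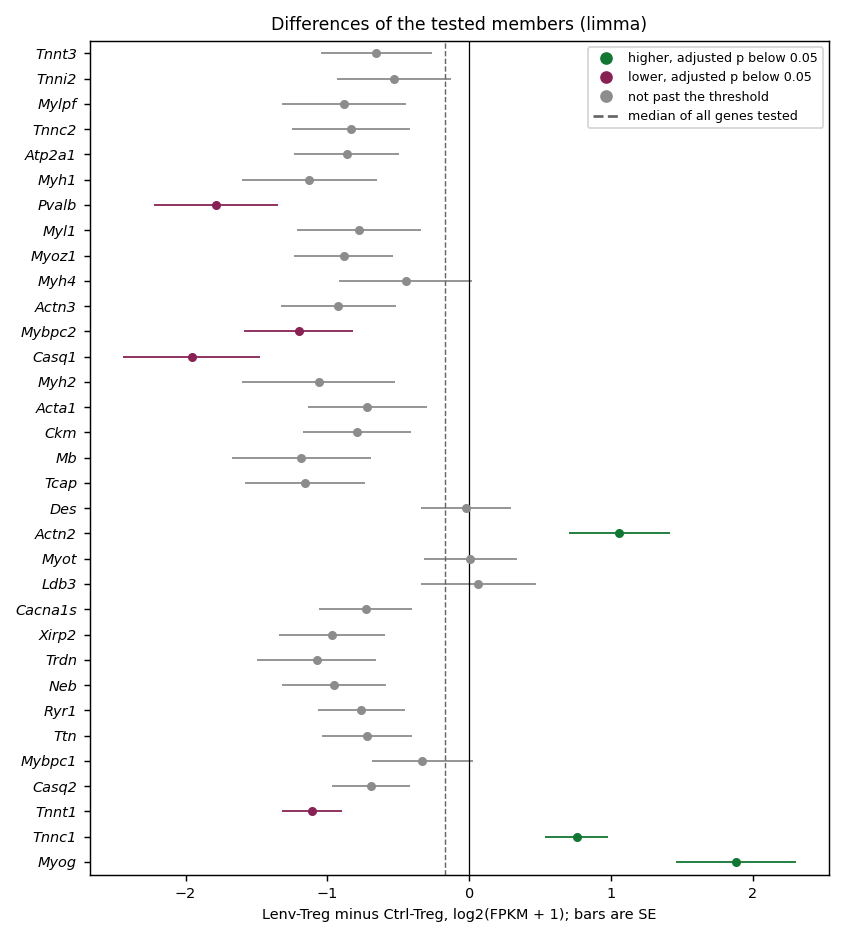
Log2(FPKM + 1) difference of each of the 33 tested genes, positive where Lenv-Treg was higher, with bars for the standard error from limma (green, called higher; purple, called lower; grey, not past the threshold). Most grey points lie left of the dashed line at the median of all genes, -0.17, with bars long relative to their distance from it, and Myog, at 1.88, and Casq1, at -1.96, lie at the ends.

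Among the fast isoforms, 3 of 14 were called lower (against 30.8% of all genes) and none higher (against 11.0%), so the calls were not more frequent than over all genes. All 14 had a negative difference (median -0.88). The 3 called lower were Casq1, Pvalb and Mybpc2. Casq1 encodes the fast calsequestrin, the calcium store of the sarcoplasmic reticulum. It measured 44.4, 121 and 26.2 FPKM in Ctrl-Treg replicates 1 to 3 and 15.7, 11.7 and 11.2 FPKM in Lenv-Treg replicates 1 to 3. All 3 Lenv-Treg libraries were below the lowest Ctrl-Treg library, so the groups did not overlap although the Ctrl-Treg values were widely spread. The mean fell 4.97-fold, from 63.9 ± 50.4 to 12.9 ± 2.47 FPKM (SD, n = 3; log2 difference -1.96, SE 0.48, adjusted p = 0.0157). It was 2.74-fold lower without Ctrl-Treg replicate 2, and the adjusted p was 0.0527 without Lenv-Treg replicate 2 and 0.0537 without Lenv-Treg replicate 3.

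Pvalb encodes parvalbumin, a calcium buffer that speeds relaxation of fast fibres. Its values were 163, 382 and 104 FPKM in Ctrl-Treg and 65.6, 41.6 and 55.2 FPKM in Lenv-Treg. Every Lenv-Treg library was below every Ctrl-Treg library. The mean fell 3.99-fold, from 216 ± 147 to 54.1 ± 12 FPKM (n = 3; log2 difference -1.79, SE 0.43, adjusted p = 0.0147, and 0.0555 without Lenv-Treg replicate 2), and the fold was 2.46 without Ctrl-Treg replicate 2. Mybpc2 encodes the fast myosin binding protein C, which tethers the thick filament. It stood at 66.4, 108 and 33.2 FPKM in Ctrl-Treg and 31.8, 21.4 and 27.2 FPKM in Lenv-Treg. Here the gap was narrow, since Ctrl-Treg replicate 3 was just above the highest Lenv-Treg library. The log2 difference was -1.20 (SE 0.38, adjusted p = 0.0396), and the call rested on all libraries but Ctrl-Treg replicate 3: leaving out any of the other 5 gave an adjusted p of 0.0605 to 0.122.

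The fast myosin heavy chains, the motor proteins of the thick filament, did not pass the test. Myh1, the IIx chain, measured 618, 570.3 and 288 FPKM in Ctrl-Treg and 409.7, 206 and 114 FPKM in Lenv-Treg. The groups overlapped, because Lenv-Treg replicate 1 was above Ctrl-Treg replicate 3 (log2 difference -1.13, SE 0.48, adjusted p = 0.0940). Myh4, the IIb chain, measured 113, 150.3 and 45.1 FPKM in Ctrl-Treg and 51.8, 52.4 and 110.3 FPKM in Lenv-Treg. Its highest Lenv-Treg value came from replicate 3, the library with the lowest Myh1 and the lowest summed muscle level (log2 difference -0.45, SE 0.47, adjusted p = 0.466). Myh2, the IIa chain, measured 23.7, 105 and 21.9 FPKM in Ctrl-Treg and 19.2, 19.5 and 14.9 FPKM in Lenv-Treg. Its groups did not overlap, yet Ctrl-Treg replicate 2 stood far above the other 5 libraries and the test did not call it (log2 difference -1.06, SE 0.54, adjusted p = 0.150). With Myh2, the groups did not overlap for 8 of the 33 genes, against 55.4% of all genes tested, and the other 7 were those called. Myh1, Myh2, Myh4 and Myh8 are near-identical neighbours in sequence, and reads shared between them could have been split by the counting, so their levels are uncertain gene by gene.

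The other 8 fast isoforms behaved alike across libraries, with Ctrl-Treg replicate 2 highest and overlapping groups. These are the troponins Tnnt3, Tnni2 and Tnnc2, which make thin filaments responsive to calcium, the light chains Mylpf and Myl1, the calcium pump Atp2a1, the Z-disc protein Myoz1 and the fast alpha-actinin Actn3. The mean level in Lenv-Treg was between 0.465 (Actn3) and 0.616 (Tnni2) times that in Ctrl-Treg, with log2 differences from -0.92 to -0.53 and adjusted p from 0.0773 (Myoz1) to 0.315 (Tnni2). Tnnt3, the most abundant of them by mean level, measured 900.3, 1657 and 530.3 FPKM in Ctrl-Treg and 711, 604 and 471 FPKM in Lenv-Treg. For Tnnt3, Ctrl-Treg replicate 3 was below both Lenv-Treg replicates 1 and 2.

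Slow isoforms were scarce apart from Mybpc1. The slow genes other than Mybpc1 summed to 4.33, 8.63 and 8.40 FPKM in Ctrl-Treg and 2.87, 3.15 and 5.44 FPKM in Lenv-Treg, while the 14 fast genes summed to 2779 to 8923 FPKM and 2410 to 3475 FPKM. Unlike the fast genes, this slow sum was not lowest in Ctrl-Treg replicate 3. Of the 8 slow isoforms, 4 passed the filter, 1 of them called higher (Tnnc1) and 1 lower (Tnnt1), against 11.0% and 30.8% of all genes. Mybpc1, the slow myosin binding protein C, which fast fibres also express, measured 96.2, 144 and 51.7 FPKM in Ctrl-Treg and 92.0, 67.5 and 57.7 FPKM in Lenv-Treg. It overlapped between groups (log2 difference -0.33, SE 0.35, adjusted p = 0.478).

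Tnnt1 encodes the slow troponin T. It measured 1.89, 2.44 and 3.60 FPKM in Ctrl-Treg and 0.393, 0.539 and 1.12 FPKM in Lenv-Treg. The lowest Ctrl-Treg value was above the highest Lenv-Treg value, and within each group replicate 3, with the least fast muscle RNA, had the most Tnnt1. The mean fell 3.86-fold (log2 difference -1.11, SE 0.21, adjusted p = 0.00563), and the adjusted p stayed between 0.00610 and 0.0250 when any 1 library was left out.

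Tnnc1, the slow and cardiac troponin C, went the other way. Its values were 0.0709, 0.510 and 0.0737 FPKM in Ctrl-Treg and 0.749, 0.709 and 1.80 FPKM in Lenv-Treg, all low. These values stood for 2, 14 and 2 reads in Ctrl-Treg and 21, 20 and 50 reads in Lenv-Treg. The gene reached the filter's minimum in all 3 Lenv-Treg libraries but in only 1 of Ctrl-Treg, so the filter favoured a higher call, and with no filter it was not called (adjusted p = 0.0770). The groups did not overlap, and the level remained far below that of the fast form Tnnc2, which measured 331 to 1300.4 FPKM across the 6 libraries. The Lenv-Treg mean was 4.98-fold higher (log2 difference 0.76, SE 0.22, adjusted p = 0.0295), or 15.0-fold without Ctrl-Treg replicate 2, but the adjusted p rose to 0.0814 with Ctrl-Treg replicate 1 left out, to 0.0778 with Ctrl-Treg replicate 3 left out and to 0.0616 with Lenv-Treg replicate 3 left out. Casq2, the slow and cardiac calsequestrin, measured 1.70, 5.04 and 3.52 FPKM in Ctrl-Treg and 1.34, 1.46 and 2.03 FPKM in Lenv-Treg. Its groups overlapped and it was not called (log2 difference -0.69, SE 0.27, adjusted p = 0.0790).

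The 4 slow genes below the filter were Myh7, Myl2, Myl3 and Tnni1, and they are given as reads recovered from the FPKM values. Myh7, the slow and cardiac heavy chain that defines type I fibres, had 1, 0 and 6 reads in Ctrl-Treg and 1, 7 and 0 reads in Lenv-Treg. A count of 0 allows up to 3 reads, or 0.0116 FPKM in Ctrl-Treg replicate 2 and 0.0114 FPKM in Lenv-Treg replicate 3, a limit that covers counting error only. Myh7 was thus at or near 0 in every library. Myl2, the slow regulatory light chain, had 1, 4 and 10 reads in Ctrl-Treg, against 3, 3 and 8 in Lenv-Treg, which overlapped. Tnni1, the slow troponin I, had 39, 40 and 71 reads in Ctrl-Treg, against 29, 21 and 29 in Lenv-Treg. Myl3, the slow essential light chain, had 11, 8 and 14 reads in Ctrl-Treg, against 3, 7 and 5 in Lenv-Treg. For both Tnni1 and Myl3 every Lenv-Treg library was below every Ctrl-Treg library (exact permutation test of mean FPKM, two-sided p = 0.1, the smallest that 3 against 3 libraries allows).

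The developmental myosins were nearly silent. Myh3, the embryonic heavy chain, had 7, 6 and 9 reads in Ctrl-Treg and 11, 2 and 11 reads in Lenv-Treg, with no separation of the groups (exact permutation p = 0.9). Myh8, the perinatal heavy chain, measured 0.470, 0.782 and 0.290 FPKM in Ctrl-Treg and 0.341, 0.359 and 0.182 FPKM in Lenv-Treg. Its order over the Ctrl-Treg libraries was that of the adult fast genes, and the groups overlapped (exact permutation p = 0.3).

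Expressed as shares of the summed myosin heavy chain level, Myh1 took 81.8%, 69.0% and 81.1% in Ctrl-Treg, against 85.2%, 74.0% and 47.7% in Lenv-Treg. Myh4 took 15.0%, 18.2% and 12.7% in Ctrl-Treg, against 10.8%, 18.8% and 46.0% in Lenv-Treg. Lenv-Treg replicate 3 alone had nearly as much Myh4 as Myh1, and the other 5 libraries were dominated by Myh1. Myh2 took at most 12.7%, in Ctrl-Treg replicate 2. Myh7 and Myh3 never exceeded 0.00943% and 0.0191%, and Myh8 held between 0.0622% and 0.129%. The fast adult chains thus made up nearly all myosin heavy chain RNA in each of the 6 libraries.

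**Figure D3:**
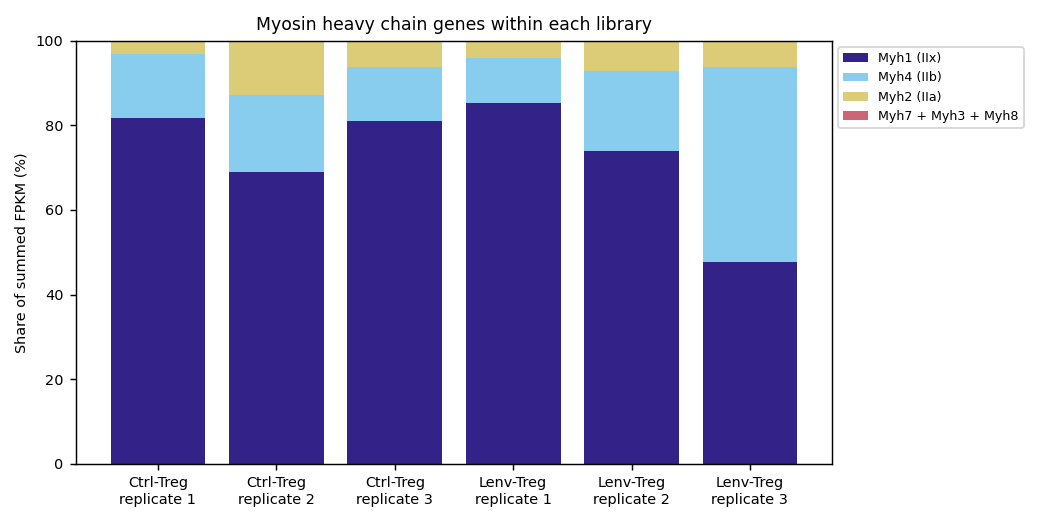
Share of each myosin heavy chain gene in the summed FPKM of 6 such genes, in percent, for each library. Myh1 fills most of each bar except in Lenv-Treg replicate 3, where Myh1 holds 47.7% and Myh4 46.0%, and Myh7, Myh3 and Myh8 together are too small to see.

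Of the 14 genes shared by fast and slow fibres, 1 was called higher, which was Actn2, and none lower, against 11.0% and 30.8% of all genes. Their median difference was -0.75. Acta1, the skeletal muscle actin of the thin filament, measured 2104, 3736 and 1124 FPKM in Ctrl-Treg and 1528, 1242 and 1047 FPKM in Lenv-Treg. It was the most abundant of the 41 genes in every library, and its groups overlapped (log2 difference -0.72, SE 0.42, adjusted p = 0.202). Ckm, the muscle creatine kinase, measured 939, 1627 and 516 FPKM in Ctrl-Treg and 618, 515 and 477 FPKM in Lenv-Treg. Ctrl-Treg replicate 3 was level with Lenv-Treg replicate 2, and the difference was not called (log2 difference -0.79, SE 0.38, adjusted p = 0.133).

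A further 8 shared genes had log2 differences from -1.18 to -0.72 without passing the test. They were the giant filament proteins Ttn and Neb, the oxygen carrier Mb, the Z-disc cap Tcap, the calcium release channel Ryr1 with its voltage sensor Cacna1s and partner Trdn, and the actin-binding Xirp2. Their adjusted p ranged from 0.0607 (Tcap) to 0.108 (Cacna1s). Mb differed most between Lenv-Treg libraries among the 8, at 229.7, 552 and 160.1 FPKM in Ctrl-Treg and 190.4, 122 and 73.6 FPKM in Lenv-Treg. Lenv-Treg replicate 1 overlapped the Ctrl-Treg range, and replicate 3 had the lowest Mb of all 6 libraries.

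The remaining 4 shared genes were Actn2, Des, Myot and Ldb3. Actn2, the alpha-actinin of all fibre types and of heart, anchors thin filaments at the Z-disc. It measured 84.8, 128 and 42.8 FPKM in Ctrl-Treg and 178, 175 and 138 FPKM in Lenv-Treg. Every Lenv-Treg library was above every Ctrl-Treg library, although Ctrl-Treg replicate 2 had the most muscle RNA of all. The mean rose 1.92-fold (log2 difference 1.06, SE 0.36, adjusted p = 0.0469). This call was near the threshold. The adjusted p was 0.108 in TPM and 0.0550 to 0.124 without Ctrl-Treg replicate 1, Ctrl-Treg replicate 3 or any 1 Lenv-Treg library, and 0.0104 without Ctrl-Treg replicate 2.

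Des, which encodes the intermediate filament desmin, measured 259.5, 409 and 156 FPKM in Ctrl-Treg and 268, 263 and 224 FPKM in Lenv-Treg. Myot, the Z-disc protein myotilin, measured 63.2, 92.8 and 35.7 FPKM in Ctrl-Treg and 69.7, 66.5 and 46.0 FPKM in Lenv-Treg. Ldb3, a Z-disc adaptor that binds alpha-actinin, measured 23.8, 51.9 and 14.2 FPKM in Ctrl-Treg and 29.1, 31.4 and 22.5 FPKM in Lenv-Treg. For all 3 genes the Lenv-Treg values lay inside the Ctrl-Treg range, and the log2 differences were -0.02 (SE 0.32), 0.01 (SE 0.33) and 0.06 (SE 0.40). The sign of such differences turned with the scaling: Des was at 0.19 after scaling to equal medians of ratios, and Myot and Ldb3 were at -0.28 and -0.21 in TPM.

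Of the myogenic factors, Myog was called higher. It encodes myogenin, a transcription factor that drives differentiation of myoblasts and is also induced in fibres that lose their nerve. Myog measured 0.655, 1.86 and 0.244 FPKM in Ctrl-Treg and 2.74, 6.36 and 9.67 FPKM in Lenv-Treg. All Lenv-Treg libraries were above all Ctrl-Treg libraries. In Ctrl-Treg it followed the muscle content, and in Lenv-Treg the library with the least muscle RNA, replicate 3, had the most. The mean rose 6.80-fold, from 0.921 ± 0.842 to 6.26 ± 3.47 FPKM (n = 3; log2 difference 1.88, SE 0.42, adjusted p = 0.0108), and the adjusted p was between 0.00476 and 0.0406 when any 1 library was left out. The fold was 13.9 without Ctrl-Treg replicate 2.

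Myod1, the factor that commits cells to the muscle lineage, did not pass the filter. It had 61, 120 and 30 reads in Ctrl-Treg and 15, 19 and 9 reads in Lenv-Treg. The groups did not overlap, with mean levels of 0.963 ± 0.630 and 0.193 ± 0.0665 FPKM (4.98-fold lower; exact permutation p = 0.1, the smallest possible), and it was 3.20-fold lower without Ctrl-Treg replicate 2. Pax7, the marker of satellite cells, the stem cells of muscle, had 15, 13 and 4 reads in Ctrl-Treg and 12, 11 and 4 reads in Lenv-Treg. Its levels overlapped and were close to 0 in every library (exact permutation p = 0.5). Where a member did not pass the filter, limma with no filter did not call it either, with adjusted p from 0.0641 (Myl3) to 0.971 (Myh7).

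Isoforms were also compared within each library, to lessen the effect of how much muscle a sample held. Ratios were taken for 12 pairs, of a slow to a fast isoform, a shared to a fast form or one fast form to another. Not every ratio was free of muscle content. In Ctrl-Treg replicates 1 to 3, Tnnt1 to Tnnt3 was at 0.210%, 0.147% and 0.679%, and Casq2 to Casq1 at 3.82%, 4.16% and 13.4%. Both were highest in replicate 3, which had the least muscle RNA, whereas some pairs given below were nearly constant there. The 11 pairs with reads in every library had values, and Myh7 to Myh4 did not because Myh7 had 0 reads in 2 libraries. In 4 pairs the groups did not overlap, each with a higher ratio in Lenv-Treg. The Actn2 to Actn3 ratio was 1.01, 0.846 and 1.01 in Ctrl-Treg, against 3.45, 4.93 and 3.29 in Lenv-Treg. It was nearly constant within Ctrl-Treg, where muscle content varied most, and 4.02-fold higher in Lenv-Treg (log2 difference 2.01). The Mybpc1 to Mybpc2 ratio was 1.45, 1.33 and 1.56 in Ctrl-Treg, against 2.90, 3.16 and 2.12 in Lenv-Treg, again with little spread within Ctrl-Treg (log2 difference 0.90).

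For troponin C, the Tnnc1 to Tnnc2 ratio was 0.0126%, 0.0392% and 0.0199% in Ctrl-Treg, against 0.178%, 0.206% and 0.545% in Lenv-Treg. The slow form thus stayed a trace in both groups (log2 difference 3.66), and the Ctrl-Treg ratios rest on 2, 14 and 2 reads of Tnnc1. The ratio of Atp2a2 to Atp2a1, the slow and fast calcium pumps, was 0.0710, 0.0489 and 0.123 in Ctrl-Treg, against 0.151, 0.195 and 0.228 in Lenv-Treg (log2 difference 1.32). Atp2a2 is not among the 41 genes and is made in many non-muscle cells, so this ratio does not measure muscle alone. The exact permutation test of each of these 4 pairs gave p = 0.1, the smallest possible, and 0.275 after Benjamini-Hochberg adjustment over the 11 pairs. Limma over the 11 pairs, which borrows the spread across pairs, was not the planned test of the ratios. It called Tnnc1 to Tnnc2 (adjusted p = 0.00886) and Actn2 to Actn3 (adjusted p = 0.00944) and no other pair. The first of these calls carries the few Tnnc1 reads.

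The other 7 pairs overlapped. Slow to fast ratios of troponin T (Tnnt1 to Tnnt3) and calsequestrin (Casq2 to Casq1) had log2 differences of -1.38 and 1.06. Those of troponin I (Tnni1 to Tnni2), the essential light chain (Myl3 to Myl1) and the regulatory light chain (Myl2 to Mylpf) were -0.37, -0.42 and 1.15, and rested on few reads of the slow gene. The Myh1 to Myh4 ratio was 5.46, 3.79 and 6.40 in Ctrl-Treg, against 7.91, 3.93 and 1.04 in Lenv-Treg. Its difference of -0.68 turned to 0.13 without Lenv-Treg replicate 3. Of the 8 slow to fast pairs with a value, 5 had a higher and 3 a lower mean log2 ratio in Lenv-Treg. The 5 include the pairs of Atp2a2 and Mybpc1, genes that slow fibres are not alone in expressing. Few reads limit the pairs of Tnnc1 and Myl2 among the 5 and of Tnni1 and Myl3 among the 3.

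**Figure D4:**
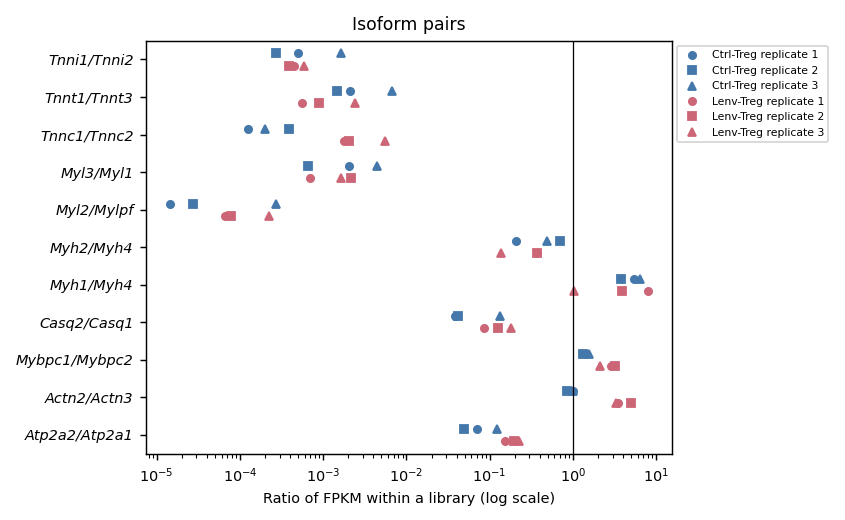
Ratio of the first to the second gene of each pair within each library, on a log axis (blue, Ctrl-Treg; red, Lenv-Treg; symbols as replicates). For Actn2/Actn3 and Mybpc1/Mybpc2 the blue symbols lie nearly on top of each other and all red symbols lie to their right, with Actn2/Actn3 at 3.29 to 4.93 in Lenv-Treg against 0.846 to 1.01.

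Each gene was also set against fibre content within its own library, as the log2 ratio of its FPKM to the geometric mean of 7 genes of differentiated skeletal fibres (Ckm, Acta1, Myh4, Tnnt3, Atp2a1, Ryr1 and Cacna1s). This comparison was added after the values had been seen, and a scaling of whole libraries does not change it. Of the other 26 tested muscle genes, 8 were higher in Lenv-Treg with no overlap and 6 lower, against 16.0% and 4.32% of the genes with such a ratio (20.3% in either direction). The remaining 12 overlapped. These shares are not a like comparison, because the reference itself varied within Ctrl-Treg, from 1.11 to -0.48 around its log2 mean. That spread cancels for genes that follow muscle content and stays in the ratios of other genes. Within Ctrl-Treg the SD of the log2 ratio was 0.03 for Actn2 and 0.74 for Atp2a2. The counts therefore do not show that muscle genes separated more often than others. The 8 higher genes were Myog, Tnnc1, Actn2, Ldb3, Myot, Des, Mybpc1 and Tnni2, with log2 differences of 3.78, 3.56, 1.80, 0.80, 0.74, 0.71, 0.40 and 0.20. Tnnc1 was among the tested genes through its Lenv-Treg values, so the filter favoured its place here. Its Ctrl-Treg ratios rest on 2, 14 and 2 reads. Actn2 was at -1.45, -1.50 and -1.49 in Ctrl-Treg, against 0.27, 0.48 and 0.22 in Lenv-Treg, so that its 3 Ctrl-Treg libraries differed by far less than the 2 groups did. Des (0.17, 0.18 and 0.37 against 0.85, 1.07 and 0.92), Myot (-1.87, -1.96 and -1.75 against -1.09, -0.92 and -1.36) and Ldb3 (at most -2.80 against at least -2.40) separated in the same way, although their FPKM overlapped. Tcap and Myoz1, which like Actn2, Myot and Ldb3 encode Z-disc proteins, overlapped on this scale, with log2 differences of -0.44 and -0.17.

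The 6 genes lower relative to fibre content were Casq1, Pvalb, Mybpc2, Xirp2, Neb and Actn3, with log2 differences of -1.30, -1.08, -0.50, -0.32, -0.32 and -0.21. Casq1 was at -2.38, -1.58 and -2.20 in Ctrl-Treg, against -3.24, -3.42 and -3.40 in Lenv-Treg. Pvalb was at -0.51, 0.08 and -0.21 in Ctrl-Treg, against -1.18, -1.59 and -1.10 in Lenv-Treg. Relative to the fibre genes, both were lower in every Lenv-Treg library than in any Ctrl-Treg library. Tnnt1, called lower in FPKM, overlapped on this scale (log2 difference -1.31), because Ctrl-Treg replicate 1 and 2 reached below Lenv-Treg replicate 3. The smallest exact permutation p was again 0.1, so no single gene could pass 0.05. With Myh4 left out of the reference, 8 genes were higher and 4 lower, and with Ckm alone as the reference 8 were higher and 3 lower. Actn3 and Xirp2 overlapped under both references, and Neb under Ckm alone.

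**Figure D5:**
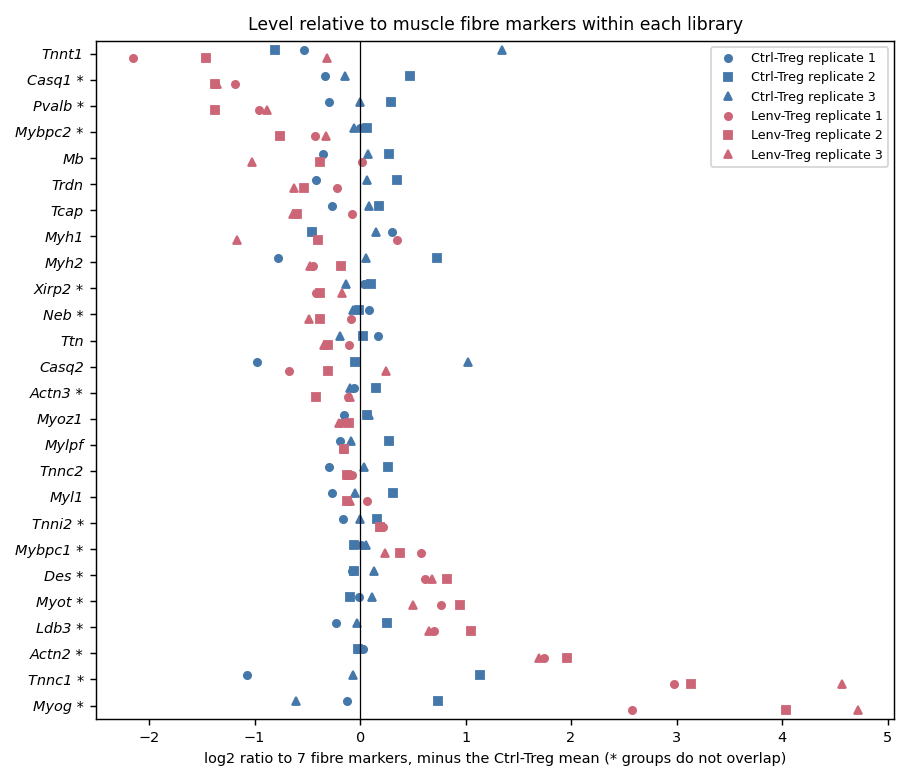
Log2 ratio of each of 26 muscle genes to the geometric mean of 7 fibre genes within each library, with the Ctrl-Treg mean of each gene set to 0 (blue, Ctrl-Treg; red, Lenv-Treg; an asterisk marks groups that do not overlap). Des, Myot, Ldb3, Actn2, Tnnc1 and Myog have all red symbols to the right of all blue ones, and Casq1, Pvalb and Mybpc2 have them to the left.

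Other genes of muscle were read from lists beside the 41, against the 11.0% of all genes called higher and 30.8% called lower. Their counts depended on single libraries. With 1 library left out, 8.26% to 10.4% of all genes were called higher and 19.9% to 28.0% lower. Of 28 tested other sarcomere genes, 4 were called higher and 5 lower, and with 1 library left out 1 to 7 higher and 1 to 11 lower. Csrp3, a Z-disc protein sensitive to stretch, rose from 70.6 ± 50.1 to 259 ± 56.8 FPKM (log2 difference 2.11, adjusted p = 0.0133, but just over the threshold without Lenv-Treg replicate 2). Trim63, the ubiquitin ligase MuRF1 of muscle protein breakdown, rose from 14.5 ± 5.40 to 63.7 ± 31.9 FPKM (2.02, adjusted p = 0.00538). Myl6b, a slow light chain, fell (-1.24, adjusted p = 0.00253), and Tpm2, a tropomyosin, was not called (-0.37). Of 16 other genes of the triad and of calcium handling, 1 was called higher, Atp2a2 (0.45), and 5 lower, among them Jph2, which joins the membranes of the triad (-1.51, with the call lost at an adjusted p of 0.0506 without Lenv-Treg replicate 3), and Mrln, an inhibitor of the calcium pump (-1.18). Sln, another pump inhibitor, was not called (0.57), but was without Ctrl-Treg replicate 2 (adjusted p = 0.000984). Clcn1, also called lower, reached the filter's minimum in 3 Ctrl-Treg libraries but in only 1 of Lenv-Treg, so the filter favoured that call. With 1 library left out, 1 to 10 of the triad genes were called lower. Among 18 muscle energy genes, 1 was called higher, Ldha (0.80), which most tissues express, and 7 lower, including Ampd1 (-1.63) and Ak1 (-1.60) of adenine nucleotide metabolism. Pygm, the muscle glycogen phosphorylase, was not called (-0.93). Between 3 and 13 energy genes were called lower when 1 library was left out.

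Of 13 genes of the dystrophin complex and fibre membrane, 4 were called lower and none higher, with 2 to 6 lower when 1 library was left out. Dmd, which encodes dystrophin, fell from 3.02 ± 0.420 to 0.758 ± 0.141 FPKM (-1.19, adjusted p = 0.000280), and Sntb1, a syntrophin, from 6.99 ± 1.16 to 1.82 ± 0.426 FPKM (adjusted p = 0.000357). Both are expressed outside muscle too, and Sgca, a sarcoglycan of the fibre membrane, was not called (-0.45). Of 8 tested genes of the neuromuscular junction and of denervation, 3 were called lower, including Ncam1 (-0.85), which passed the filter through its Ctrl-Treg values alone, and Rapsn (-0.51), and none higher. With 1 library left out 1 to 2 were called lower, and the Rapsn call was lost in 4 of 6 cases (adjusted p 0.0561 to 0.0687). Fbxo32, the ubiquitin ligase atrogin-1, and Gadd45a were not called (0.31 and 0.53). Among 10 tested other myogenic genes, 3 were called lower and none higher, with 1 to 5 lower when 1 library was left out. Of the 3, Eya1 reached the filter's minimum in 3 Ctrl-Treg libraries and in 0 of Lenv-Treg, so the filter favoured its call. Mstn, which encodes myostatin, the secreted inhibitor of muscle growth, measured 8.01, 21.0 and 3.70 FPKM in Ctrl-Treg and 0.675, 0.138 and 0.644 FPKM in Lenv-Treg. All Lenv-Treg libraries were far below the lowest Ctrl-Treg library (log2 difference -2.74, SE 0.50, adjusted p = 0.00451). Mef2c fell by 0.65 (adjusted p = 0.0163, but 0.0505 without Lenv-Treg replicate 2 and 0.0580 without Lenv-Treg replicate 3), and its relatives Mef2a and Mef2d were not called (0.14 and -0.04).

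Cardiac genes were read as a list of their own, since Actn2 and Tnnc1 are expressed in heart too. Of 9 cardiac genes, 4 passed the filter, and 2 of these were called higher and none lower, against 11.0% and 30.8% of all genes. Nkx2-5 was at 0 in all 6 libraries, Myh6 in 5 and Nppa in 5. Nppb (from 0.932 ± 0.203 to 8.85 ± 4.23 FPKM) and Myl7 (from 0.172 ± 0.0405 to 1.37 ± 0.718 FPKM) were called higher (adjusted p = 0.000941 and 0.0101), while Ankrd1 and Tnni3 were not called. Myl7 reached the filter's minimum in the 3 Lenv-Treg libraries and in 0 of the Ctrl-Treg libraries, so it could only be tested because it was higher there (adjusted p = 0.0354 with no filter). The summed level of the list was 3.02 to 6.20 FPKM in Ctrl-Treg and 15.4 to 18.8 FPKM in Lenv-Treg. The part of this rise in the results for Actn2, Tnnc1 and the other muscle genes was not tested.

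Markers of other skin compartments were read beside the muscle genes, against the 11.0% of all genes called higher and 30.8% called lower. The lists are short, so a count near these shares says little about its compartment. Of 14 hair follicle genes, 13 were called lower and none higher, and their summed level was 1463 to 3196 FPKM in Ctrl-Treg and 7.29 to 24.7 FPKM in Lenv-Treg. Krt27, Krt73, Krt35, Krt85, Krt31, Krt81, Krt86 and Hoxc13 reached the filter's minimum in 3 Ctrl-Treg libraries but in at most 1 of Lenv-Treg. The filter thus favoured a lower call for these genes, and the count of the list carries this limit. Adipocyte genes were called lower for 9 of 13 and higher for 1, with sums of 4110 to 6204 and 2577 to 3118 FPKM, and smooth muscle genes lower for 9 of 11 and higher for none, with sums of 305 to 471 and 202 to 260.5 FPKM. In both lists Ctrl-Treg replicate 2 had the highest sum, as it did for skeletal muscle, but the groups did not overlap. Itga8 of the smooth muscle list, called lower, reached the filter's minimum in 3 Ctrl-Treg libraries and in 0 of Lenv-Treg, so the filter favoured that call. Interfollicular epidermis genes were called higher for 3 of 11 and lower for 4. Among those 4, Krt2 reached the minimum in 3 Ctrl-Treg libraries and in 0 of Lenv-Treg. Of 9 tested nerve and Schwann cell genes, 5 were called lower, and of 11 fibroblast genes 5. Of 10 endothelial genes, 2 were called higher, and 0 to 2 when 1 library was left out (8.26% to 10.4% of all genes). The part of these differences in the results for the muscle genes was not tested.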

How the data were processed

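RNA-seq of 6 skin libraries, 3 Ctrl-Treg and 3 Lenv-Treg by the treatment label, was used as the FPKM table deposited by the authors, which has 35434 genes in rows and 6 samples in columns. RNA came from TRIzol extraction and the library kit was VAHTS Universal V10, per the labels' protocols. The submitters' processing notes name GRCm39 as the build. The sources used here give no aligner, counting tool, strand setting or annotation.

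The 41 genes, the other gene lists, the pairs and the tests were chosen with earlier results of these data known. All members are named, and of each other list the 2 most abundant genes by mean FPKM and, beyond those, the 2 with the lowest p. A gene that this rule names is not reported here. Other names (such as Nkx2-5, Myh6 and Nppa) were chosen after their values were seen.

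Genes with at least 0.5 FPKM in at least 3 of 6 libraries were tested, 13945 in all and 33 of the 41. Differences were tested two-sided on log2(FPKM + 1) in limma 3.58.1 (R 4.3.3; lmFit and eBayes with a trend). P-values were adjusted by Benjamini-Hochberg, and the threshold was 0.05. This scale understates changes of low genes. Folds are ratios of mean FPKM. Untested members and isoform ratios had exact two-sided permutation tests, 3 against 3, which cannot go below 0.1. The fit was tested on simulated data.

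FPKM values are whole multiples of what 1 read is worth, so reads were recovered. For 35431 of 35434 genes, and for all 13945 tested, they were whole within 0.005 reads plus 3e-08 of the count in every library. Voom on these reads called 1535 genes higher and 4333 lower, against 1532 and 4289 from FPKM. No 2 libraries of a group agreed within sampling noise. Same-numbered libraries did not deviate together in every pair (correlations 0.20, -0.01 and 0.33 across genes), so replicate numbers were not treated as pairs. Alternatives covered the pseudocount, the filter, scaling, the variance model, sample weights, a replicate block, the threshold and each library left out.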

Additional observations from a re-analysis of the deposited data

How the results depend on the processing

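The count of muscle genes called lower, 4 with all libraries, was 18 in TPM (57.2% of all genes), 9 with sample weights (35.9%) and 13 with a replicate block (30.6%), against 30.8% of all genes with 4. It was 1 with no filter on low values (16.0% of all genes) and 1 at a threshold of 0.01, and ranged from 1 (without Lenv-Treg replicate 2) to 22 (without Ctrl-Treg replicate 3), with 19.9% to 28.0% of all genes. The count called higher, 3, was 1 with no filter (5.77% of all genes) and 0 at a threshold of 0.01, and ranged from 1 to 3 when 1 library was left out (8.26% to 10.4% of all genes). The share of all genes at a threshold of 0.01 was not taken, so the counts at that threshold have no background to be read against. With the replicate number as a block, limma over the pairs gave adjusted p of 0.000115 for Tnnc1/Tnnc2 (log2 difference 3.66) and 0.0281 for Actn2/Actn3 (2.01). Without the block, a fit that was not planned, they were 0.00886 and 0.00944. The numbers share no stated batch or mouse, and same-numbered libraries correlated best with each other for numbers 1 and 3 and not for number 2.

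Differences near 0 changed sign. With sample weights Des was at 0.00377 and Krt1, a keratin, at -0.165. After scaling to equal medians of ratios Des was at 0.190 and Mef2d at 0.159. After quantile normalization Myot was at -0.0217, Mef2d at 0.0950, Krt1 at -0.344 and Dcn, a fibroblast gene, at -0.0150. In TPM Myot was at -0.278, Ldb3 at -0.215, Mef2a at -0.136, Krt1 at -0.281 and Dcn at -0.102. With 1 library left out, the ranges were -0.376 to 0.319 for Des, -0.721 to 0.00982 for Mybpc1, -0.353 to 0.324 for Myot and -0.352 to 0.546 for Ldb3. They were -0.0512 to 0.525 for Fbxo32, -0.164 to 0.0416 for Mef2d, -0.103 to 0.795 for Hspb6, a smooth muscle gene, and -0.421 to 0.264 for Krt1. Among the pairs they were -0.953 to 0.344 for Tnni1/Tnni2, -1.16 to 0.226 for Myl3/Myl1 and -1.33 to 0.130 for Myh1/Myh4. As ratios of FPKM + 0.5, Tnni1/Tnni2 was at 0.156 and Myl3/Myl1 at 0.440. The cause of these changes was not tested. None of the 14 separated ratios to fibre content changed sign under either other reference or with 1 library left out. Few reads limit Myh7, Myh3, Myl2, Myl3, Pax7 and Tnnc1, and with Tnnc1 its ratios. For Myh7, Myh3, Myl2 and Pax7 no difference was detectable at this depth.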
